A study of Mus musculus with 8 samples.

Results

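The difference in the cholesterol crystal (CC) response between hepatic macrophages of 2 liver states was taken from all 8 of the 8 libraries. For each gene it was the CC response with the steatotic label minus that with the normal label, (steatotic CC - steatotic Veh) - (normal CC - normal Veh), on the log2 scale. Macrophages had been pulled from mouse liver with magnetic beads against F4/80, a surface protein of tissue macrophages, and plated on collagen. The cells labelled normal came from wild-type C57BL/6J mice on a standard diet. The cells labelled steatotic came from MC4R-KO mice, which lack the melanocortin 4 receptor in the whole body, on a C57BL/6J background and a Western diet for 6 to 10 wk. Cells of both labels then received vehicle (Veh) or 500 µg/ml CC for 24 h, with 2 libraries in each of the 4 groups. Genotype and diet changed together between the labels, so they cannot be told apart. An F4/80 selection holds resident and recruited macrophages alike, and in bulk RNA fewer cells of a type and less RNA per cell cannot be told apart.

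Library totals ran from 58668655 to 74529462 counts. The targeted gene went against the labels. *Mc4r* had 0 counts in the 4 normal-labelled libraries, which allows up to 3 counts in each, and 28 and 22 counts with Veh and 53 and 72 counts with CC in the steatotic-labelled libraries. The sources used here do not say which part of the gene the knockout allele lacks, and counts over a whole gene do not show where in it the reads lay. The groups are therefore named by their labels throughout, and each direction below rests on those labels. The macrophage markers *Adgre1*, *Cd68*, *Csf1r* and *Lyz2* and 4 others were tested. Their summed level was 20983 to 21225 CPM in normal Veh, 18473 to 18753 in normal CC, 16670.3 to 16989.5 in steatotic Veh and 15826 to 16788 in steatotic CC, where CPM are counts scaled to the TMM-adjusted library total, so all 4 steatotic-labelled sums lay below the normal-labelled ones. Of the 8 markers *Adgre1*, which encodes F4/80, was called lower (difference -0.30, SE 0.050, adjusted p = 0.0205, or 0.0785 without normal CC replicate 2) and *Cd14* higher. The labels do not say that the 2 libraries of a group came from different animals, so p-values measure the spread between these libraries, which may be technical.

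Macrophages that take up crystalline cholesterol handle it in lysosomes, where acid hydrolases free lipids and the transporters NPC1 and NPC2 pass cholesterol on. Engulfed particles are sensed by lectin and Toll-like receptors, which signal through MAPK, AP-1 and NF-kB to cytokines, chemokines, prostaglandins and matrix enzymes. Free cholesterol also lowers the SREBP2 programme of cholesterol synthesis and uptake. Resident Kupffer cells carry scavenger and engulfment receptors that many activated macrophages turn down, whereas lipid-associated macrophages express *Gpnmb*, *Spp1*, *Cd9* and *Trem2*.

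The CC response differed between the labels in 490 of 15202 genes tested (3.22%) at an adjusted p below 0.05 (edgeR quasi-likelihood test of the interaction, Benjamini-Hochberg). The response was higher in the steatotic-labelled libraries in 297 genes (1.95%) and lower in 193 (1.27%). Without a correction, 2158 genes had a p below 0.05, and the median difference over all genes was 0.0053. A higher difference can be a larger rise, a rise where the other label fell, or a smaller fall. These were separated by the sign of the fitted response with each label. Of the 297 genes, 229 had a stronger rise, 61 a rise against a fall and 7 a weaker fall. Of the 193 lower genes, 128 had a stronger fall, 58 a fall against a rise and 7 a weaker rise. Larger responses in the same direction thus held 357 of the 490 genes, opposite fitted directions 119 and smaller responses 14. These counts are of the fit to all libraries and changed on leaving out 1 library, as given with the processing.

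The steatotic-labelled response passed its own test in all 229 genes of the stronger rise and all 128 of the stronger fall, and the normal-labelled response in 156 and 79 of them, respectively. In the opposite classes the fitted signs often rested on one response. Both responses passed in 14 of the 61 genes with a rise against a fall and in 11 of the 58 with a fall against a rise. A difference over 2-fold was seen in 108 higher genes (0.71%) and 30 lower genes (0.197%), so large differences were mostly stronger rises (81 genes). The median difference was 0.76 for the stronger rises and -0.54 for the stronger falls. By comparison, CC itself was called up in 12% and down in 10.9% of genes with the steatotic label, and in 6.27% and 5.54% with the normal label. Where a difference is printed with its SE and its call was lost on leaving out any 1 library, the highest adjusted p of those 8 fits stands beside the main one with the library left out. Of the genes whose difference is printed without an SE, *AI413582*, *Ass1*, *Ccdc115*, *Cd63*, *Clec4d*, *Ctsk*, *Ddit3*, *Dusp6*, *Edem1*, *Fabp5*, *Fcgrt*, *Hif1a*, *Hk3*, *Icam1*, *Id1*, *Itgav*, *Lsm10*, *Mmp10*, *Npc2*, *P2ry6*, *Paqr9*, *Pros1*, *Psap*, *Slc7a2*, *Sqstm1*, *Src*, *Tlr1* and *Trf* also lost their call in at least 1 of those fits. The scatter of the responses shows the 6 classes around the line of equal response.

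**Figure D1:**
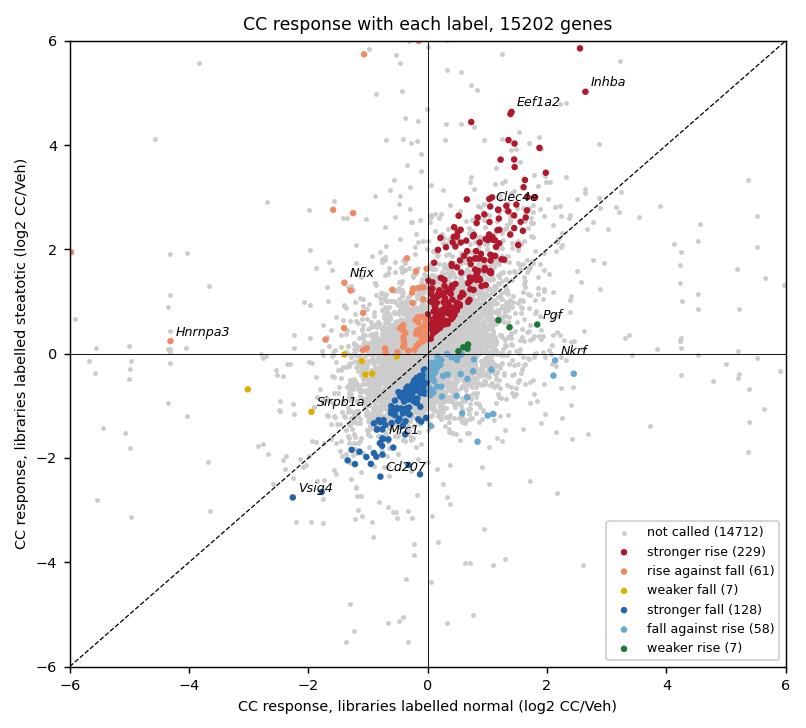
CC response (log2 CC/Veh) of each of 15202 genes in the normal-labelled (x axis) and steatotic-labelled libraries (y axis), with the 490 called genes coloured by class and all others grey. The dashed line marks equal responses, and the 99 genes with a response beyond 6 on either axis are not shown. Points above the line respond higher with the steatotic label (297 called) and points below it lower (193 called).

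Each response was also read from its start and end levels. The difference equals the gap between the labels with CC minus the gap with Veh, so each class could be read at both ends. Among the 229 stronger rises, the Veh level was called lower with the steatotic label in 153 genes, higher in 40 and neither in 36. With CC, 100 of them were called higher, 57 lower and 72 neither. Thus 129 stronger rises began lower and did not end higher, 24 began lower and ended higher, and 76 ended higher without a lower start. The stronger falls were the reverse at the start. The Veh level was called higher with the steatotic label in 84 of 128 genes, and 73 of these were not lower with CC, 11 were, and 44 further genes ended lower without a higher start. These counts describe the called genes and were not tested, since a lower start is part of a higher difference. Over all 15202 genes, Veh levels were called lower with the steatotic label in 14.3% and higher in 16.4%, and CC levels lower in 12.9% and higher in 15.9%.

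**Figure D2:**
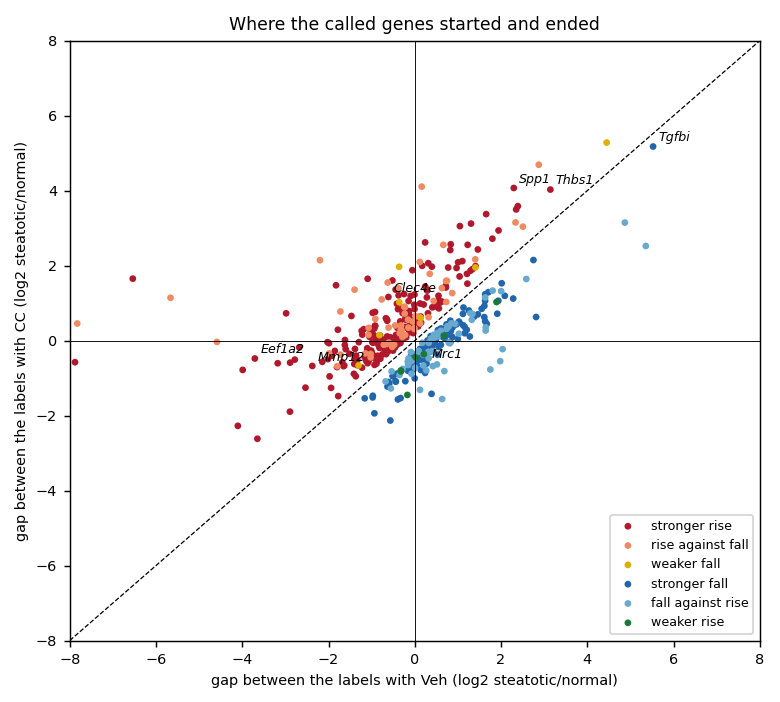
Gap between the labels (log2 steatotic/normal) with Veh (x axis) and with CC (y axis) for the 490 called genes, coloured by class, with 7 genes beyond 8 on an axis not shown. The vertical distance from the dashed line is the difference in response. Most stronger rises lie left of the zero line for Veh (153 of 229 called lower with Veh) and most stronger falls right of it (84 of 128 called higher).

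In the 30 gene lists of macrophage functions, counts of called members are to be read beside the 1.95% of all genes called higher and the 1.27% called lower, and no list was tested against another. Scavenger and efferocytosis receptors had 6 of 19 tested members called lower and 0 higher, resident Kupffer cell identity genes 3 of 20 lower and 0 higher, and chemokine and nucleotide receptors 2 of 19 lower and 0 higher. Lysosomal stress and lipid-associated macrophage genes had 8 of 19 called higher and 0 lower. Matrix metalloproteinases and inhibitors had 5 of 17 higher and 1 lower, and nitric oxide, arginine and itaconate metabolism 4 of 15 higher and 0 lower. Toll-like, Fc and lectin receptors split, with 3 of 23 higher and 5 lower, as did prostaglandin and leukotriene genes, with 2 of 16 higher and 4 lower. Interferon-stimulated genes (30), nuclear-encoded respiratory chain genes (28), cell cycle and DNA replication genes (24) and iron handling genes (15) had no called member, with 4, 2, 1 and 1 members, respectively, at an unadjusted p below 0.05 in edgeR. With DESeq2, 1 interferon-stimulated gene was called lower and 0 genes of the other 3 lists were called.

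Leaving out 1 library changed some of these counts by over 1.5 times. MAPK feedback genes had 1 higher in place of 2 without normal Veh replicate 2 or normal CC replicate 1. NRF2 antioxidant genes had 1 higher in place of 2 without any 1 library other than steatotic CC replicate 1 or steatotic CC replicate 2. Glycolysis and hypoxia-response genes had 0 or 1 higher in place of 2 without any 1 library other than steatotic CC replicate 1. Lysosomal hydrolases and membrane proteins had 1 or 2 higher in place of 4 without any 1 library other than steatotic Veh replicate 1, steatotic Veh replicate 2 or steatotic CC replicate 2. Lysosomal proton pump had 1 higher in place of 2 without any 1 library other than normal CC replicate 1 or normal CC replicate 2. Nitric oxide, arginine and itaconate metabolism had 2 higher in place of 4 without normal Veh replicate 1, normal CC replicate 1 or normal CC replicate 2. Osteoclast-like fusion genes had 1 higher in place of 3 without any 1 library other than steatotic CC replicate 2. Unfolded protein and integrated stress response had 0 or 1 higher in place of 2 without any 1 library other than normal Veh replicate 2. Toll-like, Fc and lectin receptors had 2 or 3 lower in place of 5 without any 1 library other than steatotic Veh replicate 2 or steatotic CC replicate 2. Chemokine and nucleotide receptors had 1 lower in place of 2 without normal CC replicate 1 or steatotic Veh replicate 2.

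**Figure D3:**
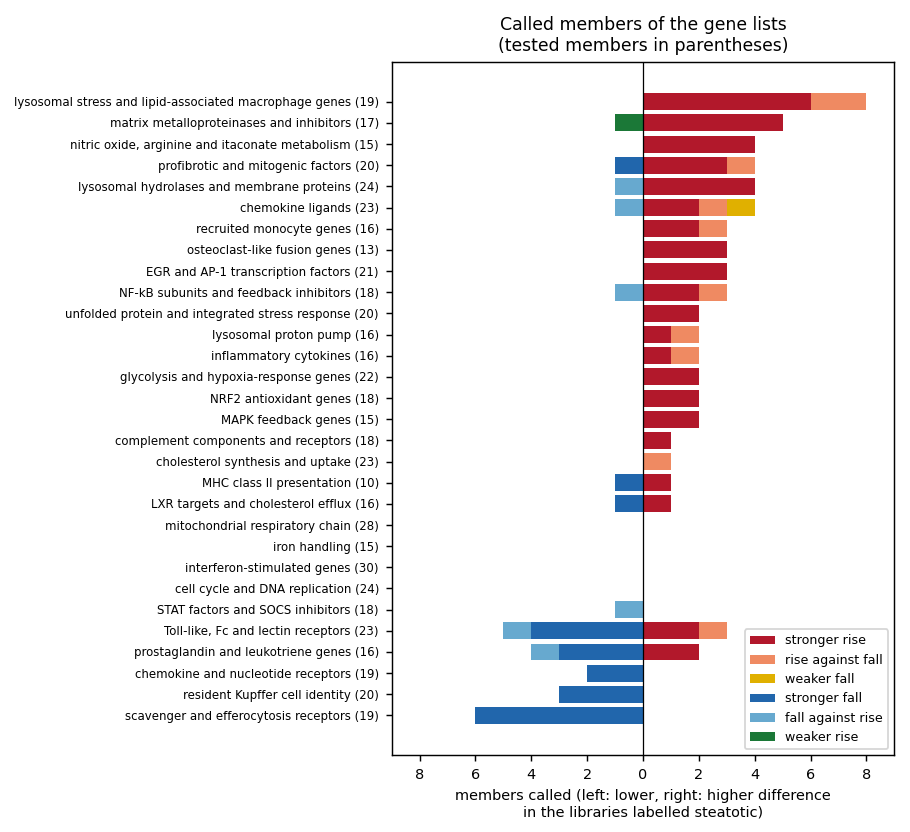
Number of called members in each of the 30 gene lists, with a lower difference in the steatotic-labelled libraries to the left and a higher one to the right, coloured by class. Tested members are given in parentheses. Scavenger and efferocytosis receptors hold 6 called members, all stronger falls, and lysosomal stress and lipid-associated genes hold 8, of which 6 are stronger rises and 2 rises against a fall.

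Among 19 tested genes of lysosomal stress and the lipid-associated state, 8 were called higher and 0 lower, 3 had a fitted difference below 0, and the list's median difference was 0.30 beside 0.0053 over all genes. *Gpnmb*, a transmembrane glycoprotein of lysosome-rich macrophages, measured 7435 and 7177 CPM with Veh and 9205 and 9073 CPM with CC in the normal-labelled libraries, and 4466 and 4561 CPM and 8709 and 8293 CPM in the steatotic-labelled libraries. For *Gpnmb*, normal CC was the highest group and steatotic Veh the lowest, and no groups overlapped. Its 1.25-fold rise with the normal label compared with a 1.88-fold rise with the steatotic label (difference 0.59, SE 0.048, adjusted p = 0.00182). *Spp1*, encoding the secreted matrix protein osteopontin, stood at 9.69 and 12.6 CPM in normal Veh, 19.8 and 19.9 in normal CC, 58.1 and 51.2 in steatotic Veh and 346 and 322 in steatotic CC. *Spp1* was highest in steatotic CC and lowest in normal Veh, with no overlap between groups. CC gave a 1.78-fold rise with the normal label and a 6.11-fold rise with the steatotic label (difference 1.78, SE 0.18, adjusted p = 0.00573). Levels of *Itgax*, the CD11c integrin chain, were 21.2 and 21.8 CPM in normal Veh, 29.02 and 30.2 in normal CC, 42.5 and 33.6 in steatotic Veh and 168 and 148 in steatotic CC. No groups of *Itgax* overlapped, with steatotic CC at the top and normal Veh at the bottom. This was a 1.38-fold rise with the normal label and a 4.16-fold rise with the steatotic label (difference 1.59, SE 0.16, adjusted p = 0.00497).

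*Lgals3*, encoding galectin-3, which binds glycans at damaged lysosomes, measured 6892 and 6514 CPM with Veh and 6497 and 6704 CPM with CC in the normal-labelled libraries, and 3243 and 3352 CPM and 5260.3 and 5056 CPM in the steatotic-labelled libraries. For *Lgals3*, steatotic Veh was the lowest group, and normal CC overlapped normal Veh. With the normal label *Lgals3* had a log2 response of -0.022 that did not pass (adjusted p = 0.789), and with the steatotic label a 1.56-fold rise (difference 0.67, SE 0.055, adjusted p = 0.00185). *Atp6v0d2*, a proton pump subunit of osteoclasts and stressed macrophages, stood at 75.2 and 72.8 CPM in normal Veh, 159 and 162 in normal CC, 69.8 and 67.1 in steatotic Veh and 267 and 235 in steatotic CC. *Atp6v0d2* was highest in steatotic CC and lowest in steatotic Veh, with no overlap between groups. CC gave a 2.17-fold rise with the normal label and a 3.67-fold rise with the steatotic label (difference 0.76, SE 0.089, adjusted p = 0.00573). The other members called higher were *Cd9*, *Cd63* and *Fabp5*, the first 2 membrane tetraspanins and the third a fatty acid binding protein, with differences of 0.29 to 0.80. The call of *Cd63* was lost in 7 of the 8 fits without 1 library and that of *Fabp5* without normal CC replicate 2. *Fabp4*, a related fatty acid carrier, measured 4.54 and 4.14 CPM with Veh and 5.32 and 4.18 CPM with CC in the normal-labelled libraries, and 13.8 and 14.9 CPM and 28 and 28.4 CPM in the steatotic-labelled libraries, and its difference did not pass (difference 0.84, SE 0.18, adjusted p = 0.0556). Osteoclast-like fusion genes had 3 of 13 called higher, *Atp6v0d2* again with *Src*, a signalling kinase, and *Ctsk*, the collagen-cleaving cathepsin K, at 0.44 and 0.57 for the last 2.

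Among 24 tested lysosomal hydrolases and membrane proteins, *Psap*, the saposin precursor, *Ctsz*, a cathepsin, *Sqstm1*, the autophagy receptor p62, and *Npc2*, the cholesterol carrier of the lysosome lumen, were called higher by 0.23 to 0.35. Levels of *Lipa*, the acid lipase that frees cholesterol from its esters, were 1671 and 1639 CPM in normal Veh, 1799 and 1783 in normal CC, 1129 and 1153 in steatotic Veh and 1008 and 1019 in steatotic CC. No groups of *Lipa* overlapped, with normal CC at the top and steatotic CC at the bottom. This was a 1.08-fold rise with the normal label and a 1.13-fold fall with the steatotic label (difference -0.28, SE 0.041, adjusted p = 0.0122, or 0.0578 without normal CC replicate 1). It was the only member of that list called lower. In the proton pump list 2 of 16 members were called higher, *Atp6v1c1* (difference 0.51, SE 0.057, adjusted p = 0.00507) and *Atp6v0c*. *Atp6v0c*, the membrane ring subunit, measured 379.8 and 383 CPM with Veh and 416 and 309 CPM with CC in the normal-labelled libraries, and 111 and 121 CPM and 272 and 287 CPM in the steatotic-labelled libraries. For *Atp6v0c*, steatotic Veh was the lowest group, and normal CC overlapped normal Veh. With the normal label *Atp6v0c* had a log2 response of -0.073 that did not pass (adjusted p = 0.807), and with the steatotic label a 2.41-fold rise (difference 1.34, SE 0.20, adjusted p = 0.0274, or 0.104 without steatotic Veh replicate 1). *Atp6v0c* has processed copies in the genome, between which reads can be split, and its 2 normal CC libraries lay on both sides of the Veh values.

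Genes of cholesterol synthesis and uptake mostly had fitted differences above 0. Of 23 tested members, 20 did, and the list's median was 0.38, but most of these differences did not pass their own test. CC was called down in 10 of the 23 genes with the normal label and 6 with the steatotic label, and up in 0 and 2, respectively. Over all genes those shares were 5.54% and 10.9% down and 6.27% and 12% up. Among 16 genes of the LXR oxysterol response and cholesterol efflux, *Scd1*, a fatty acid desaturase, was called higher (difference 0.92, SE 0.10, adjusted p = 0.0051) and *Smpdl3a*, a phosphodiesterase, lower (difference -0.35, SE 0.061, adjusted p = 0.0265, or 0.095 without normal CC replicate 2).

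Inflammatory genes were among the stronger rises. *Clec4e*, the lectin receptor Mincle at chr6:123281789-123289870 (mm10), stood at 38.6 and 38 CPM in normal Veh, 79.7 and 78.5 in normal CC, 25.4 and 24.7 in steatotic Veh and 173 and 182 in steatotic CC. *Clec4e* was highest in steatotic CC and lowest in steatotic Veh, with no overlap between groups. CC gave a 2.07-fold rise with the normal label and a 7.07-fold rise with the steatotic label (difference 1.78, SE 0.065, adjusted p = 6.79e-05). It began lower and ended higher with the steatotic label. Levels of *Il1a*, encoding the alarm cytokine interleukin-1 alpha, were 76.97 and 81.7 CPM in normal Veh, 168 and 168 in normal CC, 39.8 and 36.8 in steatotic Veh and 189 and 171 in steatotic CC. No groups of *Il1a* overlapped, with steatotic CC at the top and steatotic Veh at the bottom. This was a 2.12-fold rise with the normal label and a 4.71-fold rise with the steatotic label (difference 1.15, SE 0.092, adjusted p = 0.00169). *Ptgs2*, the inducible cyclooxygenase, measured 11.5 and 11.2 CPM with Veh and 27.6 and 23.9 CPM with CC in the normal-labelled libraries, and 15.9 and 13.97 CPM and 106 and 96 CPM in the steatotic-labelled libraries. For *Ptgs2*, steatotic CC was the highest group and normal Veh the lowest, and no groups overlapped. Its 2.27-fold rise with the normal label compared with a 6.77-fold rise with the steatotic label (difference 1.58, SE 0.14, adjusted p = 0.00233).

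*Ptges*, the prostaglandin E synthase next in that path, was called higher too (difference 1.40, SE 0.12, adjusted p = 0.00219). *Cxcl2*, a neutrophil chemokine, stood at 36.9 and 37.4 CPM in normal Veh, 109.9 and 98.1 in normal CC, 13.1 and 11.4 in steatotic Veh and 94.6 and 83.1 in steatotic CC. *Cxcl2* was highest in normal CC and lowest in steatotic Veh, with no overlap between groups. CC gave a 2.80-fold rise with the normal label and a 7.25-fold rise with the steatotic label (difference 1.37, SE 0.13, adjusted p = 0.00329). *Cxcl3*, a close relative, measured 4.38 and 4.92 CPM with Veh and 16.2 and 13.4 CPM with CC in the normal-labelled libraries, and 11.4 and 10.3 CPM and 91.99 and 82.3 CPM in the steatotic-labelled libraries (difference 1.33, SE 0.17, adjusted p = 0.0068). It ended highest in steatotic CC, whereas *Cxcl2* did not. Levels of *Nos2*, the inducible nitric oxide synthase, were 7.44 and 7.68 CPM in normal Veh, 16.5 and 16.5 in normal CC, 9.58 and 8.90 in steatotic Veh and 42.3 and 41.1 in steatotic CC. No groups of *Nos2* overlapped, with steatotic CC at the top and normal Veh at the bottom. This was a 2.19-fold rise with the normal label and a 4.51-fold rise with the steatotic label (difference 1.05, SE 0.11, adjusted p = 0.00382).

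The other genes of nitric oxide, arginine and itaconate metabolism called higher were *Acod1*, which makes itaconate, *Ass1*, of the path from citrulline to arginine, and *Slc7a2*, an arginine transporter, at 0.74 to 1.15. Among 21 EGR and AP-1 factors, *Egr1* (difference 0.76, SE 0.094, adjusted p = 0.00659), *Ier3* and *Jun* were called higher, and 15 of the 21 had a fitted difference above 0. The call of *Jun* (difference 0.33, SE 0.069, adjusted p = 0.0498, or 0.15 without normal CC replicate 1) was lost with DESeq2 size factors, with a filter on 2 libraries and in 7 of the 8 fits without 1 library. The MAPK phosphatases *Dusp4* and *Dusp6*, which switch off the kinases that induce them, were called higher at 1.20 and 0.60. Of 18 NF-kB subunits and inhibitors, *Relb*, *Icam1* and *Nfkbia*, the inhibitor that NF-kB itself induces, were called higher at 0.48 to 0.53. *Nfkbiz*, a nuclear relative of these inhibitors, was called lower (difference -0.42, SE 0.080, adjusted p = 0.0348, or 0.111 without normal CC replicate 1), with *Nfkbiz* at 94 and 88.7 CPM in steatotic Veh and 78.2 and 73.2 CPM in steatotic CC. Interleukin-1 genes were the only 2 of 16 cytokines called.

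Matrix enzymes and profibrotic factors were called higher in 5 of 17 and 4 of 20 tested genes, respectively. *Mmp12*, the macrophage elastase at chr9:7344381-7369499 (mm10), measured 1235 and 1257 CPM with Veh and 3957 and 3751 CPM with CC in the normal-labelled libraries, and 249 and 231 CPM and 2631 and 2198 CPM in the steatotic-labelled libraries. For *Mmp12*, normal CC was the highest group and steatotic Veh the lowest, and no groups overlapped. Its 3.09-fold rise with the normal label compared with a 10.1-fold rise with the steatotic label (difference 1.70, SE 0.12, adjusted p = 0.0024). Its larger rise began from a level well below that of the normal label and ended below it as well. *Mmp13*, a collagenase, stood at 311 and 319.5 CPM in normal Veh, 775 and 755 in normal CC, 470.1 and 458 in steatotic Veh and 1644 and 1591 in steatotic CC. *Mmp13* was highest in steatotic CC and lowest in normal Veh, with no overlap between groups. CC gave a 2.43-fold rise with the normal label and a 3.49-fold rise with the steatotic label (difference 0.52, SE 0.050, adjusted p = 0.00295). The other metalloproteinases called higher were *Mmp8*, *Mmp10* and *Mmp14*, at 0.43 to 2.74. *Mmp8* is also a neutrophil gene, and the neutrophil markers *Ly6g*, *Elane*, *Camp* and *Ngp* and 3 others did not reach the filter of 0.5 CPM in any library.

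Levels of *Inhba*, encoding the activin A subunit, were 6.37 and 8.21 CPM in normal Veh, 47.3 and 43.7 in normal CC, 9.89 and 7.33 in steatotic Veh and 318 and 241 in steatotic CC. Values of *Inhba* were highest in steatotic CC, and normal Veh overlapped steatotic Veh. This was a 6.24-fold rise with the normal label and a 32.5-fold rise with the steatotic label (difference 2.38, SE 0.31, adjusted p = 0.0243, or 0.104 without normal CC replicate 2). It had the largest response of the named profibrotic genes with either label. *Thbs1*, encoding thrombospondin-1, which activates latent TGF-beta, measured 22.2 and 25.3 CPM with Veh and 30.8 and 29.5 CPM with CC in the normal-labelled libraries, and 216 and 204 CPM and 508 and 478 CPM in the steatotic-labelled libraries. For *Thbs1*, steatotic CC was the highest group and normal Veh the lowest, and no groups overlapped. Its 1.27-fold rise with the normal label compared with a 2.35-fold rise with the steatotic label (difference 0.89, SE 0.099, adjusted p = 0.00531). *Igf1*, insulin-like growth factor 1, and *Plau*, urokinase, were called higher as well, at 0.55 and 0.54. *Tgfbi*, a matrix protein induced by TGF-beta, was called lower and measured 27.7 and 29.9 CPM with Veh and 26.1 and 26.6 CPM with CC in the normal-labelled libraries, and 1334 and 1322 CPM and 921 and 988 CPM in the steatotic-labelled libraries (difference -0.35, SE 0.070, adjusted p = 0.0437, or 0.137 without normal CC replicate 2). Its call was lost with library sizes alone as the scaling.

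**Figure D4:**
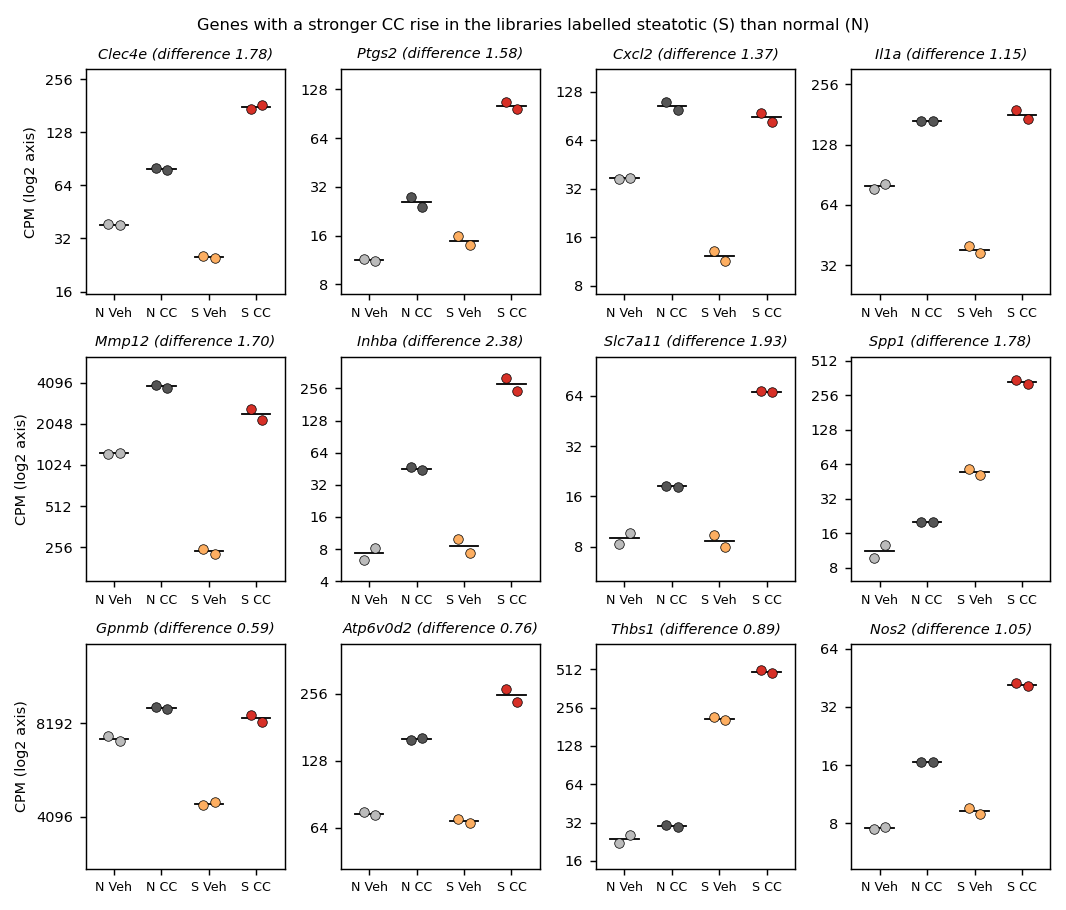
CPM (log2 axis, a separate range for each gene) in each library for 12 genes with a stronger rise, in normal Veh (N Veh), normal CC, steatotic Veh (S Veh) and steatotic CC. Points are libraries, horizontal lines are group means, and the log2 difference stands above each panel. *Clec4e* reaches 173 and 182 CPM in steatotic CC from the lowest Veh level, whereas *Mmp12* rises more steeply with the steatotic label yet stays below normal CC.

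The promoters of these genes could be read from RefSeq (GRCm38.p6), in which 10451 of the 15202 tested genes matched by symbol. The 250 bases before each start were searched on both strands for 7 short motifs, and a gene with several listed starts was counted once if any of them had the letters. The AP-1 letters TGANTCA, the site of FOS and JUN dimers, occurred in 28 of 171 (16.4%) of the stronger rises, beside 5.91% of all tested genes and 9 of 88 (10.2%) of the stronger falls. The letters CACGTG, an E-box of the TFEB and TFE3 type, stood in 15.8% of stronger rises, 15.9% of stronger falls and 9.82% of all genes. The longer TCACGTGA, which contains those letters, stood in 0.585%, 0% and 1.77% of the same promoters. An NF-kB motif occurred in 2.92%, 2.27% and 1.82% in the same order, and the letters GCGNGGGCG of EGR factors in 8.77%, 5.68% and 9.99%. The letters TCACNCCAC of a sterol element gave 2.92%, 2.27% and 1.22%, and the STAT letters TTCNNNGAA 8.77%, 10.2% and 7.27%. No motif was tested for enrichment, and a match is a description of the letters, not of bound factors.

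The 100 bases before the start are shown, 5′ to 3′, for 4 stronger rises with the AP-1 letters, for *Cxcl2* with the NF-kB letters on this strand, and for *Tlr9*, a stronger fall that also carries the AP-1 letters, with the matches in capitals. RefSeq lists 2 starts for *Mmp12*, and the stretch shown precedes the downstream one, which lies inside the gene as given above. The match begins 35 bases before the start in *Mmp13* at chr9:7272414-7272513 (plus strand), 44 in *Mmp12* at chr9:7347274-7347373 (plus strand), 12 in *Il1a* at chr2:129309973-129310072 (minus strand) and 56 in *Itgax* at chr7:128129450-128129549 (plus strand). *Tlr9* has it 58 bases before the start at chr9:106222498-106222597 (plus strand), and *Cxcl2* has matches 97 and 78 bases before the start at chr5:90903799-90903898 (plus strand).
Mmp13: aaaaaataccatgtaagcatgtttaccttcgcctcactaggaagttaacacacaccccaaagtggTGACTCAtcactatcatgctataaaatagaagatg
Mmp12: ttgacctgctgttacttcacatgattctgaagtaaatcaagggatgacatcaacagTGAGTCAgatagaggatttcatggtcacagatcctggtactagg
Il1a: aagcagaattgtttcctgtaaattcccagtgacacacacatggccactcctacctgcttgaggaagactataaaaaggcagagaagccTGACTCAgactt
Itgax: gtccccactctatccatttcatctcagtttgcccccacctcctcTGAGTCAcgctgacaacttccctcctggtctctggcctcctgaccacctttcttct
Cxcl2: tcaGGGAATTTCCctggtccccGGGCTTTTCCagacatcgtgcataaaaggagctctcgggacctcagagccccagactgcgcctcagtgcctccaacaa
Tlr9: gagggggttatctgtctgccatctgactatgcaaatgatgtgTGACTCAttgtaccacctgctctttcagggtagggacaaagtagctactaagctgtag

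Antioxidant and stress genes held further stronger rises. *Slc7a11*, the cystine importer that NRF2 induces, stood at 8.34 and 9.66 CPM in normal Veh, 18.5 and 18.3 in normal CC, 9.36 and 7.96 in steatotic Veh and 68.4 and 66.9 in steatotic CC. *Slc7a11* was highest in steatotic CC, and steatotic Veh overlapped normal Veh. CC gave a 2.04-fold rise with the normal label and a 7.81-fold rise with the steatotic label (difference 1.93, SE 0.15, adjusted p = 0.00153). Of the 18 NRF2 antioxidant genes *Gsr*, glutathione reductase, was the other one called higher (difference 0.43, SE 0.070, adjusted p = 0.0189, or 0.0752 without steatotic Veh replicate 1). *Hif1a* and *Hk3*, a hypoxia factor and a hexokinase, were called higher among 22 glycolysis and hypoxia genes, and *Ddit3* and *Edem1*, of the response to misfolded protein, among 20, with differences of 0.33 to 0.46. *C3*, the central complement protein, rose more (difference 0.65, SE 0.071, adjusted p = 0.00506) and was the only 1 of 18 complement genes called.

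Levels of *Eef1a2*, a translation elongation factor mostly known from neurons and muscle, were 17.4 and 15.1 CPM in normal Veh, 42.4 and 43.6 in normal CC, 1.27 and 1.22 in steatotic Veh and 31.1 and 30.7 in steatotic CC. No groups of *Eef1a2* overlapped, with normal CC at the top and steatotic Veh at the bottom. This was a 2.65-fold rise with the normal label and a 24.9-fold rise with the steatotic label (difference 3.23, SE 0.13, adjusted p = 7.96e-05). Its end levels differed less between the labels than its Veh levels. *Dcbld2*, a membrane receptor, measured 14.6 and 17.7 CPM with Veh and 63.5 and 54.9 CPM with CC in the normal-labelled libraries, and 5.62 and 3.79 CPM and 83.6 and 61.2 CPM in the steatotic-labelled libraries. For *Dcbld2*, steatotic Veh was the lowest group, and normal CC overlapped steatotic CC. Its 3.66-fold rise with the normal label compared with a 15.4-fold rise with the steatotic label (difference 2.07, SE 0.34, adjusted p = 0.0422, or 0.148 without normal CC replicate 2). *Dcbld2* ended at overlapping levels with both labels. Of the 16 recruited monocyte genes, *Cd14*, the coreceptor for lipopolysaccharide, rose more (difference 0.54, SE 0.089, adjusted p = 0.0203, or 0.076 without normal CC replicate 2). *S100a8*, a calcium-binding alarm protein, did so too (difference 1.31, SE 0.18, adjusted p = 0.0101), and *Vcan* is described with the opposite responses. *Tlr2* and *Clec4d*, the receptor for bacterial lipopeptides and a partner of Mincle, were called higher at 0.61 and 0.43.

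Opposite directions were clearest where both responses passed. *Il1b*, encoding interleukin-1 beta, stood at 97.4 and 97.1 CPM in normal Veh, 74.4 and 66.4 in normal CC, 85.6 and 79.8 in steatotic Veh and 116 and 116 in steatotic CC. *Il1b* was highest in steatotic CC and lowest in normal CC, with no overlap between groups. CC gave a 1.38-fold fall with the normal label and a 1.40-fold rise with the steatotic label (difference 0.95, SE 0.089, adjusted p = 0.00273). The *Il1bos* transcript lies on the opposite strand of *Il1b*. Levels of *Vcan*, encoding the matrix proteoglycan versican of recruited monocytes, were 1.92 and 2.30 CPM in normal Veh, 1.36 and 1.43 in normal CC, 15.6 and 15.3 in steatotic Veh and 34.1 and 38.2 in steatotic CC. No groups of *Vcan* overlapped, with steatotic CC at the top and normal CC at the bottom. This was a 1.51-fold fall with the normal label and a 2.34-fold rise with the steatotic label (difference 1.82, SE 0.17, adjusted p = 0.00266). *Lmna*, encoding the nuclear lamins A and C, measured 295 and 287 CPM with Veh and 226 and 217 CPM with CC in the normal-labelled libraries, and 184 and 187 CPM and 213 and 203 CPM in the steatotic-labelled libraries. For *Lmna*, normal Veh was the highest group and steatotic Veh the lowest, and no groups overlapped. Its 1.31-fold fall with the normal label compared with a 1.12-fold rise with the steatotic label (difference 0.56, SE 0.059, adjusted p = 0.00455).

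*Cyba*, a subunit of the phagocyte oxidase, and *Lacc1*, a purine-cycle enzyme of macrophages, likewise fell with the normal label and rose with the steatotic label, with differences of 0.34 and 0.64. *Nfix*, a transcription factor, stood at 14.4 and 22.95 CPM in normal Veh, 6.23 and 7.96 in normal CC, 6.64 and 7.56 in steatotic Veh and 18.4 and 17.99 in steatotic CC. For *Nfix*, steatotic Veh overlapped normal CC and steatotic CC overlapped normal Veh. CC gave a 2.63-fold fall with the normal label and a 2.56-fold rise with the steatotic label (difference 2.76, SE 0.32, adjusted p = 0.00785). Levels of *Cxcl13*, a B cell chemokine, were 24.1 and 27.4 CPM in normal Veh, 7.63 and 8.08 in normal CC, 28.8 and 27.1 in steatotic Veh and 27.2 and 40.1 in steatotic CC. Values of *Cxcl13* were lowest in normal CC, and the other 3 groups overlapped. This was a 3.28-fold fall with the normal label and a log2 response of 0.27 that did not pass (adjusted p = 0.344) with the steatotic label (difference 1.98, SE 0.25, adjusted p = 0.01, or 0.0564 without normal CC replicate 1). Its steatotic response did not pass, so the difference rested on the fall with the normal label.

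*Hnrnpa3*, an RNA-binding protein, measured 39.5 and 40.2 CPM with Veh and 2.16 and 1.84 CPM with CC in the normal-labelled libraries, and 1.47 and 1.83 CPM and 1.85 and 2.06 CPM in the steatotic-labelled libraries. For *Hnrnpa3*, normal Veh was the highest group and steatotic Veh the lowest, and steatotic CC overlapped normal CC. Its 19.9-fold fall with the normal label compared with a log2 response of 0.24 that did not pass (adjusted p = 0.292) with the steatotic label (difference 4.55, SE 0.20, adjusted p = 0.000119). It stood high in normal Veh and low in the other 3 groups. *Hnrnpa3* has many near-identical copies in the genome, so its counts are uncertain. Conversely, *Lgals3*, *Tlr2*, *Igf1*, *Icam1*, *Relb* and *Nfkbia* had no called response with the normal label and a called rise with the steatotic label.

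The 11 genes that fell with the steatotic label and rose with the normal label, each by its own test, included *Lipa* above. *Tgm2*, a transglutaminase that cross-links proteins, stood at 516 and 537 CPM in normal Veh, 599 and 617 in normal CC, 761 and 773 in steatotic Veh and 659 and 663 in steatotic CC. *Tgm2* was highest in steatotic Veh and lowest in normal Veh, with no overlap between groups. CC gave a 1.16-fold rise with the normal label and a 1.16-fold fall with the steatotic label (difference -0.42, SE 0.049, adjusted p = 0.00576). Levels of *Slamf9*, a receptor of the SLAM family, were 104 and 108 CPM in normal Veh, 122 and 131 in normal CC, 439 and 409.9 in steatotic Veh and 323 and 308 in steatotic CC. No groups of *Slamf9* overlapped, with steatotic Veh at the top and normal Veh at the bottom. This was a 1.20-fold rise with the normal label and a 1.34-fold fall with the steatotic label (difference -0.68, SE 0.075, adjusted p = 0.00506). *Cyth4*, an exchange factor for ARF proteins, moved the same way (difference -0.39, SE 0.058, adjusted p = 0.0134, or 0.0566 without normal CC replicate 2).

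*Il4ra*, the interleukin-4 receptor chain, measured 148 and 168 CPM with Veh and 166 and 174 CPM with CC in the normal-labelled libraries, and 392 and 408 CPM and 277 and 281 CPM in the steatotic-labelled libraries. For *Il4ra*, steatotic Veh was the highest group, and normal Veh overlapped normal CC. With the normal label *Il4ra* had a log2 response of 0.11 that did not pass (adjusted p = 0.347), and with the steatotic label a 1.44-fold fall (difference -0.63, SE 0.087, adjusted p = 0.0107). *Tbxas1*, thromboxane synthase, stood at 43.9 and 41.3 CPM in normal Veh, 43.4 and 44.2 in normal CC, 89.4 and 83.6 in steatotic Veh and 49.2 and 50.4 in steatotic CC. *Tbxas1* was highest in steatotic Veh, and normal Veh overlapped normal CC. *Tbxas1* had a log2 response of 0.041 that did not pass (adjusted p = 0.732) with the normal label and a 1.74-fold fall with the steatotic label (difference -0.84, SE 0.081, adjusted p = 0.0031). Levels of *Ccl5*, a T cell chemokine, were 248 and 256 CPM in normal Veh, 345 and 319.6 in normal CC, 886 and 874 in steatotic Veh and 839.9 and 836 in steatotic CC. No groups of *Ccl5* overlapped, with steatotic Veh at the top and normal Veh at the bottom. This was a 1.32-fold rise with the normal label and a log2 response of -0.071 that did not pass (adjusted p = 0.299) with the steatotic label (difference -0.47, SE 0.060, adjusted p = 0.00736).

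Every *Ccl5* value with the normal label was below every value with the steatotic label. *Nkrf*, a repressor of NF-kB target genes, measured 2.67 and 2.40 CPM with Veh and 11.6 and 10.6 CPM with CC in the normal-labelled libraries, and 9.58 and 11.2 CPM and 9.70 and 9.32 CPM in the steatotic-labelled libraries. For *Nkrf*, normal Veh was the lowest group, and steatotic CC overlapped steatotic Veh and steatotic Veh overlapped normal CC. Its 4.39-fold rise with the normal label compared with a log2 response of -0.13 that did not pass (adjusted p = 0.532) with the steatotic label (difference -2.26, SE 0.18, adjusted p = 0.00169). *Ctse*, the aspartic protease cathepsin E, stood at 0.138 and 0.0589 CPM in normal Veh, 0.224 and 0.205 in normal CC, 35.5 and 38.9 in steatotic Veh and 17.8 and 15.6 in steatotic CC. *Ctse* was highest in steatotic Veh and lowest in normal Veh, with no overlap between groups. *Ctse* had a log2 response of 1.09 that did not pass (adjusted p = 0.102) with the normal label and a 2.23-fold fall with the steatotic label (difference -2.25, SE 0.38, adjusted p = 0.0221, or 0.0973 without normal CC replicate 1). With the normal label *Ctse* lay near the limit of detection, since 3 counts correspond to 0.0409 to 0.0512 CPM, and its fold there is uncertain. *AI413582*, a small gene of unnamed function, and *Zdhhc24*, a palmitoyl transferase, had differences of -1.50 and -1.44.

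**Figure D5:**
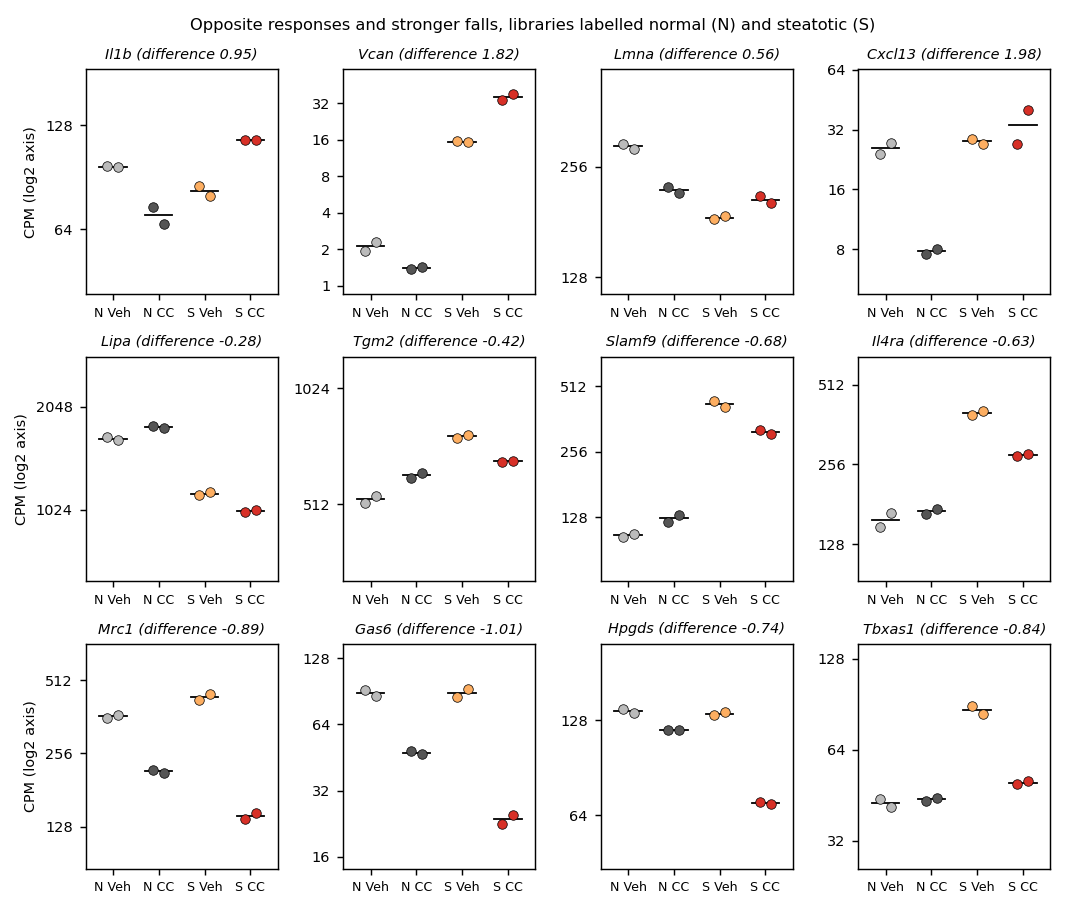
CPM (log2 axis, a separate range for each gene) in each library for 12 genes with opposite responses or stronger falls, drawn as for the stronger rises. *Il1b* moves down in the normal-labelled libraries and up in the steatotic-labelled ones, *Lipa* the reverse, and *Mrc1* and *Gas6* fall with both labels and further with the steatotic label.

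Only 7 genes had a weaker fall by fitted sign. In 11 of the 61 rises against a fall the steatotic-labelled response did not pass, as in *Cxcl13* and *Hnrnpa3*. For these a damped fall and a rise cannot be told apart. Levels of *Ccl6*, a chemokine of the C-C family, were 194 and 193 CPM in normal Veh, 104 and 98.7 in normal CC, 519 and 509 in steatotic Veh and 411 and 376 in steatotic CC. No groups of *Ccl6* overlapped, with steatotic Veh at the top and normal CC at the bottom. This was a 1.91-fold fall with the normal label and a 1.31-fold fall with the steatotic label (difference 0.55, SE 0.072, adjusted p = 0.0087). *Sirpb1a*, a signal-regulatory receptor, measured 10.2 and 10.8 CPM with Veh and 2.39 and 3.07 CPM with CC in the normal-labelled libraries, and 237 and 223 CPM and 103 and 109.8 CPM in the steatotic-labelled libraries. For *Sirpb1a*, steatotic Veh was the highest group and normal CC the lowest, and no groups overlapped. Its 3.86-fold fall with the normal label compared with a 2.17-fold fall with the steatotic label (difference 0.83, SE 0.14, adjusted p = 0.0265, or 0.103 without normal Veh replicate 2). *Gpatch4*, *Lsm10* and *Ccdc115*, of nucleolar, histone mRNA and proton pump assembly functions, had differences of 0.64 to 1.38. The falls with the steatotic label did not pass for *Gpatch4* and *Lsm10* (adjusted p = 0.942 and 0.403, respectively).

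Uptake receptors were among the stronger falls. Of 19 scavenger and efferocytosis genes, 6 were called lower and 0 higher, with a list median of -0.17. *Mrc1*, the mannose receptor at chr2:14229392-14332057 (mm10), stood at 359 and 367 CPM in normal Veh, 219 and 213 in normal CC, 426 and 451 in steatotic Veh and 137 and 145 in steatotic CC. *Mrc1* was highest in steatotic Veh and lowest in steatotic CC, with no overlap between groups. CC gave a 1.68-fold fall with the normal label and a 3.11-fold fall with the steatotic label (difference -0.89, SE 0.064, adjusted p = 0.00121). Levels of *Gas6*, a bridge between dying cells and the receptors MERTK and AXL, were 91.6 and 86.6 CPM in normal Veh, 48.4 and 46.9 in normal CC, 85.1 and 92.95 in steatotic Veh and 22.6 and 24.9 in steatotic CC. Values of *Gas6* were lowest in steatotic CC, and steatotic Veh overlapped normal Veh. This was a 1.87-fold fall with the normal label and a 3.75-fold fall with the steatotic label (difference -1.01, SE 0.098, adjusted p = 0.00327). *Itgb5*, an integrin chain that binds milk fat globule protein on dying cells, measured 127 and 123 CPM with Veh and 71.2 and 77.7 CPM with CC in the normal-labelled libraries, and 239 and 247 CPM and 98.7 and 102 CPM in the steatotic-labelled libraries. For *Itgb5*, steatotic Veh was the highest group and normal CC the lowest, and no groups overlapped. Its 1.67-fold fall with the normal label compared with a 2.42-fold fall with the steatotic label (difference -0.53, SE 0.075, adjusted p = 0.0113).

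*Pros1*, another bridging ligand, *Itgav*, the partner of *Itgb5*, and *Scarb1*, the receptor for high-density lipoprotein, completed the 6 at -0.37 to -0.69. Kupffer cell identity genes followed with 3 of 20 called lower, and 0 were called without normal Veh replicate 2, normal CC replicate 2, steatotic Veh replicate 1 or steatotic Veh replicate 2. *Vsig4*, the complement receptor of the immunoglobulin family, stood at 327 and 295 CPM in normal Veh, 62.8 and 66.7 in normal CC, 574 and 608 in steatotic Veh and 83.7 and 91.1 in steatotic CC. *Vsig4* was highest in steatotic Veh and lowest in normal CC, with no overlap between groups. CC gave a 4.80-fold fall with the normal label and a 6.76-fold fall with the steatotic label (difference -0.50, SE 0.095, adjusted p = 0.0367, or 0.122 without steatotic Veh replicate 2). *Vsig4* fell with both labels and the difference was small beside either fall. *Id1*, an inhibitor of DNA binding, and *Paqr9*, a membrane receptor, were called lower at -0.64 and -0.72, respectively. CC was called down in 12 of the 20 genes with the steatotic label and 6 with the normal label, beside 10.9% and 5.54% of all genes.

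Prostaglandin and leukotriene genes had 6 calls among 16 tested, in both directions. The inducible *Ptgs2* and *Ptges* rose more, whereas *Ptgs1*, the constitutive cyclooxygenase, *Hpgds*, *Tbxas1* and *Alox5ap*, which lead to prostaglandin D2, thromboxane and leukotrienes, had lower responses. Levels of *Hpgds*, prostaglandin D synthase of hematopoietic cells, were 139 and 135 CPM in normal Veh, 119 and 119 in normal CC, 133 and 135 in steatotic Veh and 70.8 and 69.5 in steatotic CC. Values of *Hpgds* were lowest in steatotic CC, and steatotic Veh overlapped normal Veh. This was a 1.15-fold fall with the normal label and a 1.91-fold fall with the steatotic label (difference -0.74, SE 0.057, adjusted p = 0.00153). *Ptgs1* measured 68.4 and 66.4 CPM with Veh and 53 and 51.1 CPM with CC in the normal-labelled libraries, and 69.3 and 79.4 CPM and 27.9 and 32.6 CPM in the steatotic-labelled libraries. For *Ptgs1*, steatotic Veh was the highest group and steatotic CC the lowest, and no groups overlapped. Its 1.30-fold fall with the normal label compared with a 2.46-fold fall with the steatotic label (difference -0.92, SE 0.13, adjusted p = 0.0109). *Alox5ap* was lower as well (difference -0.45, SE 0.078, adjusted p = 0.0249, or 0.0903 without steatotic Veh replicate 1), and its call was lost in 7 of the 8 fits without 1 library.

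Sensing receptors had calls in both directions. The lectins *Clec4e* and *Clec4d* and the surface *Tlr2* had higher responses, and *Tlr9* and *Tlr13*, which read nucleic acids inside endosomes, *Tlr1* and the Fc receptors *Fcgr4* and *Fcgrt* lower ones. *Tlr9*, the sensor of CpG DNA, stood at 35.5 and 38.2 CPM in normal Veh, 35.2 and 32.4 in normal CC, 161 and 153 in steatotic Veh and 81.5 and 73.1 in steatotic CC. *Tlr9* was highest in steatotic Veh and lowest in normal CC, with no overlap between groups. *Tlr9* had a log2 response of -0.12 that did not pass (adjusted p = 0.347) with the normal label and a 2.03-fold fall with the steatotic label (difference -0.89, SE 0.10, adjusted p = 0.00572). Levels of *Fcgr4*, an activating IgG receptor, were 187 and 188 CPM in normal Veh, 121 and 124 in normal CC, 599 and 562 in steatotic Veh and 279 and 298 in steatotic CC. No groups of *Fcgr4* overlapped, with steatotic Veh at the top and normal CC at the bottom. This was a 1.53-fold fall with the normal label and a 2.01-fold fall with the steatotic label (difference -0.40, SE 0.067, adjusted p = 0.0226, or 0.0805 without normal CC replicate 2). *Tlr13*, *Tlr1* and *Fcgrt* had differences of -0.38 to -1.10.

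The antigen presentation list had a median below 0. The 10 tested MHC class II genes and costimulatory ligands had a median difference of -0.66, with 7 below 0, and edgeR called *H2-DMa* lower and *Cd80*, a costimulatory ligand, higher (difference 0.59, SE 0.11, adjusted p = 0.0294, or 0.0908 without normal CC replicate 2). With DESeq2, 5 of the 10 were called lower and 1 higher. *H2-DMa*, a chain of the peptide-loading molecule, measured 24.98 and 23.1 CPM with Veh and 16.6 and 17.5 CPM with CC in the normal-labelled libraries, and 51.7 and 55.6 CPM and 22.9 and 20.99 CPM in the steatotic-labelled libraries. For *H2-DMa*, steatotic Veh was the highest group and normal CC the lowest, and no groups overlapped. Its 1.41-fold fall with the normal label compared with a 2.45-fold fall with the steatotic label (difference -0.79, SE 0.11, adjusted p = 0.012, or 0.0522 without steatotic Veh replicate 2). CC was called down in 7 of the 10 with the steatotic label and 2 with the normal label, beside 10.9% and 5.54% of all genes. *Ccr3*, the eotaxin receptor, and *P2ry6*, a receptor for uridine diphosphate, were called lower among 19 chemokine and nucleotide receptors, at -0.92 and -0.52, respectively.

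The largest stronger falls among protein-coding genes above a mean log2 CPM of 3 also held genes outside the lists. *Cd207*, the lectin langerin, stood at 82.6 and 75.4 CPM in normal Veh, 46.3 and 44.8 in normal CC, 49.4 and 57.3 in steatotic Veh and 10.1 and 10.7 in steatotic CC. *Cd207* was highest in normal Veh and lowest in steatotic CC, with no overlap between groups. CC gave a 1.73-fold fall with the normal label and a 5.13-fold fall with the steatotic label (difference -1.56, SE 0.12, adjusted p = 0.00153). Levels of *Srprb*, a subunit of the receptor that brings ribosomes to the endoplasmic reticulum, were 73.5 and 67.98 CPM in normal Veh, 65.7 and 73.1 in normal CC, 57.3 and 55.4 in steatotic Veh and 24.2 and 23.8 in steatotic CC. Values of *Srprb* were lowest in steatotic CC, and normal CC overlapped normal Veh. A log2 response of -0.028 that did not pass (adjusted p = 0.854) for *Srprb* with the normal label compared with a 2.35-fold fall with the steatotic label (difference -1.20, SE 0.097, adjusted p = 0.00178). *Pecam1*, the adhesion molecule CD31 of endothelium and leukocytes, measured 24.9 and 25.97 CPM with Veh and 22.2 and 25.01 CPM with CC in the normal-labelled libraries, and 96.8 and 94.8 CPM and 36.2 and 41.4 CPM in the steatotic-labelled libraries. For *Pecam1*, steatotic Veh was the highest group, and normal CC overlapped normal Veh. With the normal label *Pecam1* had a log2 response of -0.11 that did not pass (adjusted p = 0.497), and with the steatotic label a 2.47-fold fall (difference -1.20, SE 0.12, adjusted p = 0.00368).

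The 11 tested sinusoidal endothelial markers, to which *Pecam1* belongs, summed to 100.2 to 109 CPM in normal Veh, 109.7 to 109.8 in normal CC, 274 to 283 in steatotic Veh and 197 to 199 in steatotic CC. *Pecam1* was the only 1 of the 11 called. The part of endothelial RNA in its fall was not tested. *Cela1*, an elastase, was also called lower (difference -1.22, SE 0.19, adjusted p = 0.0144, or 0.0573 without steatotic Veh replicate 1).

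Weaker rises numbered 7 genes with all libraries, as did weaker falls, and both counts changed on leaving out 1 library. *Pgf*, placental growth factor, stood at 8.22 and 8.80 CPM in normal Veh, 31.6 and 29.1 in normal CC, 7.87 and 7.23 in steatotic Veh and 11.9 and 10.3 in steatotic CC. *Pgf* was highest in normal CC and lowest in steatotic Veh, with no overlap between groups. CC gave a 3.57-fold rise with the normal label and a 1.47-fold rise with the steatotic label (difference -1.28, SE 0.15, adjusted p = 0.00576). Levels of *Gpr35*, a receptor for tryptophan products, were 29.3 and 32.7 CPM in normal Veh, 80.2 and 80.1 in normal CC, 116 and 115 in steatotic Veh and 172 and 156 in steatotic CC. No groups of *Gpr35* overlapped, with steatotic CC at the top and normal Veh at the bottom. This was a 2.59-fold rise with the normal label and a 1.42-fold rise with the steatotic label (difference -0.87, SE 0.094, adjusted p = 0.00506). *Gpr35* ended higher with the steatotic label from a Veh level that was already above normal CC.

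*Gramd1b*, a carrier of cholesterol from the plasma membrane to the endoplasmic reticulum, measured 48.9 and 51.7 CPM with Veh and 109.8 and 119 CPM with CC in the normal-labelled libraries, and 83.1 and 77.4 CPM and 128 and 122 CPM in the steatotic-labelled libraries. For *Gramd1b*, steatotic CC was the highest group and normal Veh the lowest, and no groups overlapped. Its 2.27-fold rise with the normal label compared with a 1.56-fold rise with the steatotic label (difference -0.54, SE 0.087, adjusted p = 0.0189, or 0.0621 without normal CC replicate 2). *Mmp19*, a metalloproteinase, stood at 75.6 and 71.2 CPM in normal Veh, 118 and 115 in normal CC, 80.1 and 89.8 in steatotic Veh and 84.9 and 96.5 in steatotic CC. *Mmp19* was highest in normal CC and lowest in normal Veh, and steatotic Veh overlapped steatotic CC. CC gave a 1.59-fold rise with the normal label and a log2 response of 0.095 that did not pass (adjusted p = 0.46) with the steatotic label (difference -0.57, SE 0.11, adjusted p = 0.0388, or 0.116 without normal Veh replicate 2). By fitted sign, lower differences came from stronger falls (128 genes) and falls against a rise (58) more often than from weaker rises (7). In 13 of the 58, however, the steatotic-labelled response did not pass, as in *Ccl5* and *Nkrf*. For these a lost rise and a fall cannot be told apart.

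Genes with no called difference included some with a called CC response. *Vegfa*, the endothelial growth factor, measured 2.24 and 1.97 CPM with Veh and 6.15 and 5.83 CPM with CC in the normal-labelled libraries, and 11.8 and 10.8 CPM and 35.7 and 40.1 CPM in the steatotic-labelled libraries. It rose 2.84-fold and 3.35-fold, with a difference of 0.24 (95% interval -0.12 to 0.59, adjusted p = 0.577). *Pdgfb*, a mitogen for stellate cells, rose 1.44-fold and 1.38-fold, with a difference of -0.066 (95% interval -0.33 to 0.20, adjusted p = 0.864). For *Kcnn4*, a calcium-activated potassium channel, neither response passed and the difference was -0.25 (95% interval -0.74 to 0.23, adjusted p = 0.674). These intervals are wide for *Vegfa* and *Kcnn4*, so their responses are not shown to be alike.

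Of the lists with no called member, the interferon-stimulated *Ifit3* had a difference of 0.049 (95% interval -0.049 to 0.15, adjusted p = 0.691), the replication factor *Pcna* 0.11 (95% interval -0.011 to 0.23, adjusted p = 0.402) and the ATP synthase subunit *Atp5b* 0.097 (95% interval -0.015 to 0.21, adjusted p = 0.432). *Fth1*, ferritin heavy chain, had 0.12 (95% interval -0.88 to 1.12, adjusted p = 0.94), and its normal Veh libraries measured 8642 and 15127 CPM. *Tlr4*, the lipopolysaccharide receptor, had libraries of both CC groups far apart, since it measured 21.8 and 179 CPM in the 2 normal CC libraries and 206 and 26.9 CPM in the 2 steatotic CC libraries.

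Markers of other liver cells changed in part beside these results. Hepatocyte markers (15 tested, *Trf* alone called, lower) summed to 172 to 178 CPM in normal Veh, 141 to 155 in normal CC, 109.97 to 124 in steatotic Veh and 54.6 to 59.7 in steatotic CC. Stellate cell and fibroblast markers (2 of 12 tested, none called) summed to 3.38 to 3.51 CPM in normal Veh, 8.07 to 9.31 in normal CC, 18.4 to 22.4 in steatotic Veh and 111 to 139 in steatotic CC. Of that list *Col1a1*, *Col3a1* and *Lrat* did not reach 0.5 CPM in any library, and *Dcn*, the proteoglycan decorin, had a difference of 1.06 (95% interval 0.54 to 1.58, adjusted p = 0.057). The 3 tested neutrophil markers summed to 134 to 137 CPM in normal Veh, 149.9 to 151 in normal CC, 251 to 259.8 in steatotic Veh and 392 to 397 in steatotic CC, and *Mmp8* and *S100a8* were the 2 called. T and NK cell markers (14 tested, none called) summed to 6.66 to 7.37 CPM in normal Veh, 4.66 to 5.12 in normal CC, 71.7 to 78.2 in steatotic Veh and 56.4 to 57.7 in steatotic CC. B cell (5 tested) and dendritic cell (8 tested) markers had no called member either, and of 6 cholangiocyte markers *Spp1*, which macrophages also express, was called. Whether RNA of these cells took part in the differences was not tested.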

How the data were processed

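Poly(A) RNA of F4/80-selected hepatic macrophages was sequenced in 8 libraries. Paired 150 bp reads were cleaned by the authors (fastp), placed on the mouse genome mm10 (HISAT2) and turned into estimated counts per gene from StringTie transcript coverage, which they deposited. Versions are not given in the sources used here. Such counts depend on how reads were shared between transcripts and copies, and may exceed the number of read pairs. The deposited estimated counts entered edgeR as they were, and were rounded to whole numbers only for DESeq2 and after division by 4. Of 55401 genes, the 15202 with 0.5 CPM in at least 1 library entered quasi-likelihood fits (edgeR 4.0.16, R 4.3.3) of all 8 libraries over 4 groups, with TMM scaling and without a block. The interaction was tested with Benjamini-Hochberg adjustment at 0.05. Printed CPM use TMM-scaled library sizes, on which 3 counts correspond to a floor for counting error only. Coordinates are from GENCODE M21 (mm10), with 15181 tested genes matched, and promoters from RefSeq GRCm38.p6.

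The members, 30 gene lists and 9 marker lists were chosen with earlier results of these data known. In each class the 4 called genes with the largest absolute difference were named. These had to be protein-coding, above a mean log2 CPM of 3, and of the same sign for each replicate number alone. Each list gave up to 3 per direction with the lowest p at a mean log2 CPM above 1. Up to 4 per direction with both responses called, a few genes of the study's text, and *Mc4r* were also named. Further list members are named where they were called, and all other genes were chosen after their values were seen. Deviations of same-numbered libraries had correlations from -0.0041 to 0.060 over genes. Numbers were not taken as pairs, although such correlations cannot exclude a shared cell preparation. Alternatives were DESeq2 1.42.0, other scalings, filters, thresholds, counts divided by 4, a replicate block and leaving out each library. A gene that the rule named is not reported here.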

Additional observations from a re-analysis of the deposited data

Results flagged for a closer look

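Each result here stands out because the CC response differed between the 2 labels in a test of the difference itself, edgeR's interaction contrast with Benjamini-Hochberg adjustment over all 15202 genes. Over all genes, 297 had a higher and 193 a lower response in the steatotic-labelled libraries. The values are log2 differences, steatotic minus normal, for the genes named in the report and among the other observations.

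The genes that had a stronger rise had differences of 3.23 for *Eef1a2*, 2.74 for *Mmp10*, 2.38 for *Inhba*, 2.13 for *Sphk1*, 2.07 for *Dcbld2*, 1.93 for *Slc7a11*, 1.78 for *Spp1*, 1.78 for *Clec4e*, 1.75 for *Serpinb2*, 1.74 for *F10*, 1.72 for *Sgms2* and 1.70 for *Mmp12*. Next in size came 1.59 for *Itgax*, 1.58 for *Ptgs2*, 1.40 for *Ptges*, 1.37 for *Cxcl2*, 1.33 for *Cxcl3*, 1.31 for *S100a8*, 1.26 for *Vwf*, 1.20 for *Dusp4*, 1.20 for *F7*, 1.15 for *Il1a*, 1.15 for *Ass1* and 1.05 for *Nos2*. Below these were 0.92 for *Scd1*, 0.89 for *Thbs1*, 0.80 for *Cd9*, 0.76 for *Egr1*, 0.76 for *Atp6v0d2*, 0.74 for *Slc7a2*, 0.74 for *Acod1*, 0.68 for *Plaur*, 0.67 for *Mmp8*, 0.65 for *Ier3*, 0.65 for *C3* and 0.60 for *Dusp6*. Then followed 0.59 for *Cd80*, 0.59 for *Gpnmb*, 0.57 for *Ctsk*, 0.57 for *Procr*, 0.54 for *Cd14*, 0.54 for *Plau*, 0.53 for *Relb*, 0.52 for *Mmp13*, 0.51 for *Atp6v1c1*, 0.48 for *Nfkbia*, 0.46 for *Hif1a* and 0.44 for *Src*. After them stood 0.43 for *Mmp14*, 0.43 for *Clec4d*, 0.43 for *Gsr*, 0.37 for *Hk3*, 0.36 for *Degs1*, 0.35 for *Ctsz*, 0.34 for *Edem1*, 0.33 for *Ddit3*, 0.33 for *Jun*, 0.32 for *Sqstm1*, 0.31 for *Psap* and 0.30 for *S100a10*. Last came 0.29 for *Cd63* and 0.23 for *Npc2*. All of these rose with the steatotic label in their own test.

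The genes that had a rise against a fall had differences of 4.55 for *Hnrnpa3*, 2.76 for *Nfix*, 1.98 for *Cxcl13*, 1.82 for *Vcan*, 1.49 for *Smpdl3b*, 1.34 for *Atp6v0c*, 0.95 for *Il1b*, 0.67 for *Lgals3*, 0.64 for *Lacc1*, 0.61 for *Tlr2*, 0.56 for *Lmna* and 0.55 for *Igf1*. Next in size came 0.54 for *S1pr1*, 0.50 for *Icam1*, 0.40 for *Fabp5* and 0.34 for *Cyba*.

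The genes that had a weaker fall had differences of 1.38 for *Gpatch4*, 0.97 for *Lsm10*, 0.83 for *Sirpb1a*, 0.64 for *Ccdc115* and 0.55 for *Ccl6*.

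The genes that had a stronger fall had differences of -1.56 for *Cd207*, -1.22 for *Cela1*, -1.20 for *Srprb*, -1.20 for *Pecam1*, -1.10 for *Fcgrt*, -1.01 for *Gas6*, -0.92 for *Ptgs1*, -0.92 for *Ccr3*, -0.89 for *Tlr9*, -0.89 for *Mrc1*, -0.79 for *H2-DMa* and -0.74 for *Hpgds*. Next in size came -0.73 for *Trf*, -0.72 for *Paqr9*, -0.69 for *Pros1*, -0.64 for *Id1*, -0.53 for *Itgb5*, -0.52 for *Scarb1*, -0.52 for *P2ry6*, -0.50 for *Vsig4*, -0.49 for *Tlr1*, -0.45 for *Alox5ap*, -0.40 for *Fcgr4* and -0.37 for *Itgav*. Below these were -0.35 for *Smpdl3a*, -0.35 for *Tgfbi* and -0.30 for *Adgre1*.

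The genes that had a fall against a rise had differences of -2.26 for *Nkrf*, -2.25 for *Ctse*, -1.50 for *AI413582*, -1.44 for *Zdhhc24*, -1.06 for *Sphk2*, -0.84 for *Tbxas1*, -0.72 for *mt-Cytb*, -0.68 for *Slamf9*, -0.63 for *Il4ra*, -0.47 for *Ccl5*, -0.42 for *Nfkbiz* and -0.42 for *Tgm2*. Next in size came -0.39 for *Cyth4*, -0.38 for *Tlr13*, -0.32 for *S1pr2* and -0.28 for *Lipa*.

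The genes that had a weaker rise had differences of -1.28 for *Pgf*, -0.87 for *Gpr35*, -0.57 for *Mmp19* and -0.54 for *Gramd1b*.

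The cause of none of these differences was tested.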

How the results depend on the processing

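No called gene named here reversed under any alternative, and 31 of the 130 kept their call under all of them. The counts of higher and lower genes were 430 and 307 with DESeq2, 289 and 204 with DESeq2 size factors, 318 and 176 with library sizes alone, 399 and 259 with every gene of any count, 286 and 206 with 0.5 CPM in 2 libraries, and 306 and 205 with counts divided by 4, which stands for counts above the number of read pairs. At an adjusted p below 0.1 they were 457 and 320, and over 2-fold 108 and 30. By class, DESeq2 gave 116 rises against a fall, 112 falls against a rise, 15 weaker falls and 14 weaker rises. With every gene of any count the rises against a fall were 99, weaker falls 13 and weaker rises 12. At an adjusted p below 0.1 there were 110 rises against a fall, 103 falls against a rise, 202 stronger falls, 16 weaker falls and 15 weaker rises. Over 2-fold there were 81 stronger rises, 25 rises against a fall, 2 weaker falls, 14 stronger falls, 15 falls against a rise and 1 weaker rise. The cause of these shifts was not tested, except that looser and stricter thresholds change the count by construction.

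Leaving out 1 library at a time gave 186 to 251 higher and 101 to 176 lower genes, with the fewest higher genes without normal Veh replicate 2 and the fewest lower genes without steatotic Veh replicate 2. The lone library of a group was then assumed to vary like the other groups. The classes ranged from 128 to 200 for stronger rises, 43 to 62 for rises against a fall, 5 to 15 for weaker falls, 57 to 123 for stronger falls, 38 to 64 for falls against a rise and 4 to 15 for weaker rises, with the fewest stronger falls without steatotic Veh replicate 2. Every fit without a library kept the call of 73 of the 130 called genes named, and single fits lost 21 to 46 of them. *Npc2* lost its call with DESeq2, *Jun* with DESeq2 size factors, *Tgfbi* with library sizes alone, *Atp6v0c*, *Dcbld2* and *Inhba* with every gene of any count, *Degs1* and *Jun* with the filter on 2 libraries, and *Ctse* with counts divided by 4. *Fabp4*, *Dcn* and *Lyz2* gained one with DESeq2, and *Fth1* without normal Veh replicate 1. Counted once per list, direction and alternative, the counts of called members moved 178 times.

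With a replicate block, 246 genes were higher (231 shared with the fit without it) and 154 lower (142 shared). No correlation of deviations exceeded 0.1, which does not show whether same-numbered libraries shared a cell preparation. The block lost 13 named genes (*Atp6v0c*, *Ccdc115*, *Cd63*, *Ddit3*, *Fcgrt*, *Jun*, *Mmp19*, *Npc2*, *Paqr9*, *S100a10*, *Slc7a2*, *Src* and *Vsig4*), and *Dcn* gained a call with it. Library totals were at least 58668655 counts, and the precision is set by 2 libraries a group and 4 residual degrees of freedom.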

Other observations

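3 gene groups were assembled after their values had been seen and are given as descriptions. The 13 respiratory subunits encoded in mitochondrial DNA all had a fitted difference below 0, and 12 of them were called lower, beside 1.27% of all genes, with a median of -0.50. By contrast, 0 of the 28 nuclear-encoded respiratory chain genes was called, with a median of 0.081 and 2 at an unadjusted p below 0.05. Levels of *mt-Cytb*, the cytochrome b subunit, were 1167 and 1109 CPM in normal Veh, 1203 and 1125 in normal CC, 767 and 782 in steatotic Veh and 502 and 459.5 in steatotic CC. Values of *mt-Cytb* were lowest in steatotic CC, and normal Veh overlapped normal CC. A log2 response of 0.032 that did not pass (adjusted p = 0.779) for *mt-Cytb* with the normal label compared with a 1.61-fold fall with the steatotic label (difference -0.72, SE 0.077, adjusted p = 0.00455). All mitochondrial transcripts together held 1.85 and 1.75% of counts in normal Veh, 1.75 and 1.67% in normal CC, 1.44 and 1.46% in steatotic Veh and 1.13 and 1.07% in steatotic CC. Both steatotic CC libraries were below all others. These transcripts share 1 genome, so they are not independent of each other.

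Of 18 genes of the coagulation and plasminogen system, 8 were called higher and 0 lower, beside 1.95% and 1.27% of all genes, with a median difference of 0.27. *F10*, coagulation factor X, measured 10.6 and 10.4 CPM with Veh and 13.2 and 12.8 CPM with CC in the normal-labelled libraries, and 19.02 and 18.5 CPM and 80.2 and 74.2 CPM in the steatotic-labelled libraries. For *F10*, steatotic CC was the highest group and normal Veh the lowest, and no groups overlapped. Its 1.24-fold rise with the normal label compared with a 4.11-fold rise with the steatotic label (difference 1.74, SE 0.098, adjusted p = 0.000419). *Serpinb2*, the plasminogen activator inhibitor of monocytes, stood at 28.1 and 30.5 CPM in normal Veh, 46.1 and 36.2 in normal CC, 36.04 and 36.8 in steatotic Veh and 165 and 180.1 in steatotic CC. *Serpinb2* was highest in steatotic CC and lowest in normal Veh, and steatotic Veh overlapped normal CC. CC gave a 1.40-fold rise with the normal label and a 4.73-fold rise with the steatotic label (difference 1.75, SE 0.16, adjusted p = 0.00353). *F7*, coagulation factor VII, *Vwf*, von Willebrand factor, *Procr*, the protein C receptor, *Plau*, *Plaur*, the urokinase receptor, and *S100a10*, a plasminogen receptor subunit, had differences of 0.30 to 1.26.

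Sphingolipid genes were called in both directions, 5 higher and 3 lower of 21 tested, beside the same shares of all genes. The sphingosine kinases parted. Levels of *Sphk1*, the inducible kinase, were 2.36 and 2.14 CPM in normal Veh, 3.85 and 2.59 in normal CC, 0.664 and 0.957 in steatotic Veh and 5.22 and 4.94 in steatotic CC. No groups of *Sphk1* overlapped, with steatotic CC at the top and steatotic Veh at the bottom. A log2 response of 0.52 that did not pass (adjusted p = 0.256) for *Sphk1* with the normal label compared with a 6.25-fold rise with the steatotic label (difference 2.13, SE 0.36, adjusted p = 0.0243, or 0.0726 without normal Veh replicate 1). *Sphk2*, its nuclear and mitochondrial relative, measured 92.8 and 90.3 CPM with Veh and 107 and 108 CPM with CC in the normal-labelled libraries, and 113 and 108 CPM and 62.5 and 62.1 CPM in the steatotic-labelled libraries. For *Sphk2*, steatotic CC was the lowest group, and normal CC overlapped steatotic Veh. Its 1.18-fold rise with the normal label compared with a 1.77-fold fall with the steatotic label (difference -1.06, SE 0.062, adjusted p = 0.000468). *Sgms2*, *Smpdl3b*, *Degs1* and the receptor *S1pr1* were also called higher, at 0.36 to 1.72, and *Smpdl3a* and the receptor *S1pr2* lower, at -0.35 and -0.32. Of the genes in these groups whose difference is printed without an SE, *Degs1*, *F7*, *S100a10*, *S1pr1* and *S1pr2* lost their call in at least 1 fit without 1 library.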
